A study of Mus musculus with 6 samples.

Results

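The AP-1 and immediate early genes described here are Fos, Fosb, Jun, Junb, Jund, Egr1, Egr2, Ier2, Atf3 and Dusp1. These 10 of the 55401 genes in the deposited table were chosen by gene symbol. A total of 9 had a read in any library, and 8 passed the filter on low values (10 or more normalized counts in 3 or more libraries), as did 14273 genes in all. Jund and Egr2 did not. The values are total RNA sequencing of bone marrow cells from 6 mice that carried secondary transplants of an acute myeloid leukaemia that depends on 2 homeobox genes, Hoxa9 and Meis1. 3 mice, numbered 62, 63 and 87, had been given lymphoid leukaemic stem cells and yielded lymphoid cells (Lym+, here Lym). The other 3 mice, 56, 57 and 91, had been given Lin- leukaemic stem cells and yielded lineage-negative, cKit-positive progenitor cells (Lin-). Both groups thus carry the same driver genes, and neither is normal marrow. The strain, age and donor of each mouse, and the time from killing to lysis, are not given in the sources used here.

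AP-1 is a dimer of basic leucine zipper proteins, in which a Fos protein (Fos, Fosb) pairs with a Jun protein (Jun, Junb, Jund), or Jun proteins pair with each other. Genes for several of its subunits are immediate early genes: growth factor, cytokine or stress signals switch them on within minutes through MAP kinases and factors such as SRF and CREB, with no new protein needed, and their mRNAs decay fast. Egr1 and Egr2 encode zinc finger factors of the same response, Atf3 a stress-induced zipper protein, Ier2 a small nuclear protein and Dusp1 a phosphatase that switches MAP kinases off. In blood cells this set is known to respond to the signals a cell received in the animal and also to tissue dissociation, sorting and delay before lysis.

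The promoters of 4 members are shown because these genes cover the main patterns found: Jun and Fosb varied most between mice relative to genes of like level, Dusp1 varied within one group, and Fos is the founding member. Each is the 250 bases before the RefSeq transcription start in GRCm38.p6, 5′ to 3′ on the strand of the gene. Capitals mark matches on either strand to TGACG (the core of a cAMP response element), TGACGTCA (the full element, which holds that core on both strands), TGANTCA (the AP-1 site), GCGNGGGCG (the EGR site) or the CArG box of SRF.
Fos, chr12:85473640-85473889, plus strand: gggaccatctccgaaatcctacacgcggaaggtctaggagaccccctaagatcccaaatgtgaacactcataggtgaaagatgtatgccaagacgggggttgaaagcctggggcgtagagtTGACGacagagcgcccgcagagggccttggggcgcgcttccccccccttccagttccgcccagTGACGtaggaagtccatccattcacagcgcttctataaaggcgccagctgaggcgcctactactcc
Jun, chr4:95052223-95052472, minus strand: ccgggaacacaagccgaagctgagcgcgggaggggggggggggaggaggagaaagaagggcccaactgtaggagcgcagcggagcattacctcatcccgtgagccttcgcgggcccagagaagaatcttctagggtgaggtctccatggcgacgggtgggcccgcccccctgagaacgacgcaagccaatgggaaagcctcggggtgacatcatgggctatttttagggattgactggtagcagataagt
Fosb, chr7:19310046-19310295, minus strand: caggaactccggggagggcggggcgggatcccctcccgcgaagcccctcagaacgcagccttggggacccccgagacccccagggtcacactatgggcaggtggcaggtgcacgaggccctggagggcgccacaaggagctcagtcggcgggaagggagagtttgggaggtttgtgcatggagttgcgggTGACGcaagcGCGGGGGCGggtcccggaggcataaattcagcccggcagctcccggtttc
Dusp1, chr17:26508473-26508722, minus strand: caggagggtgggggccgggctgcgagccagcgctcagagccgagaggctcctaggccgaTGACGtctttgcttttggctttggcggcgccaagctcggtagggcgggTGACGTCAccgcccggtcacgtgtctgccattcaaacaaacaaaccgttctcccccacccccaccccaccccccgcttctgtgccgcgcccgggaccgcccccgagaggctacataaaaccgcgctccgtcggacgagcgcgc
TGACG was present in the windows of 6 of the 8 members that had a window in the RefSeq table (Fos, Fosb, Junb, Atf3, Dusp1 and Egr2), against 17.8% of all 32851 windows. The full TGACGTCA was found in the Dusp1 window alone among them, and in 1.55% of all windows. The EGR site was found in the Fosb window (4.70% of all windows), the CArG box in overlapping windows of Egr2 (1.47%) and the AP-1 site in none of the 8 (6.75%). The Jun window held none of the 5 motifs. These matches describe letters in a short window and carry no test.

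Depth was even, at 18537700 to 22634286 reads per library, and 1 read was worth 0.880 to 1.12 normalized counts. The Lym library of mouse 62 was made from 1 ng of RNA and the other 5 from 2 ng. The Lym libraries did not form a group of their own. Over all genes tested, the root mean square log2 difference of mouse 87 was 0.574 to 0.744 from the Lin- libraries and 0.912 to 1.10 from the other 2 Lym libraries. Mouse 63 was also nearest to a Lin- library (0.773 from mouse 57, 0.839 from its nearest Lym library), and mouse 62 lay 0.839 to 1.16 from every other library. Calls that change without mouse 87 are named below. Where 3 values are listed for a group, they follow the order of mice 62, 63, 87 for Lym and 56, 57, 91 for Lin-. The labels were checked against marker lists. Kit, the receptor in the name of the Lin- cells, was at 4953, 6066 and 3420 normalized counts in Lin-, and at 18902, 12027 and 3158 in Lym. The 4 progenitor markers (Kit, Cd34, Gata2 and Myb) summed to 75209, 50892 and 39374 in Lym and 33607, 37550 and 32297 in Lin-. Every Lym library thus lay above every Lin- library in this sum, and in each of these genes other than Kit. T or NK markers, 1 of 6 of them tested, summed to 266, 58.2 and 21.9 in Lym and 18.5, 15.0 and 1.03 in Lin-. Lymphoid and early B markers summed to 831, 141 and 41.0 in the Lym libraries (3.53 to 14.1 in Lin-), while Cd79a and Pax5 stayed at 4.48 or less in every library. Monocyte and macrophage markers, 7 of 7 of them tested, summed to 4874, 8273 and 6884 in the Lym libraries and 9500, 10482 and 9618 in the Lin- libraries. Ly6c2 carried the gap between the groups: without it, a choice made after seeing the values, the other 6 summed to 3913, 5664 and 3528 and to 5069.98, 5541 and 4798, so the groups overlapped and Lym mouse 63 was the highest. Neutrophil markers summed to 39.3, 299.9 and 61.0 in Lym, and stromal or endothelial markers to 0, 30.2 and 9.53. All 5 erythroid markers had 0 reads in every library. In such bulk samples fewer cells of a type and less RNA per cell cannot be told apart.

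Per kilobase of exon, averaged over the 6 libraries, the order of normalized counts was Ier2 (1032), Jun (978), Fos (414), Junb (317), Fosb (214), Dusp1 (101), Egr1 (81.0), Atf3 (6.04), Jund (1.81) and Egr2 (0). Neighbours in this order overlapped from Ier2 down to Egr1: the libraries ranged over 833 to 1276 for Ier2 and 511 to 1435 for Jun, and over 74.5 to 156 for Dusp1 and 38.8 to 145 for Egr1. Atf3, at 0.521 to 11.1, lay below Egr1 in every library. As counted, Jun, Fos, Junb and Fosb made up nearly all of this level among the AP-1 members, with Jund near 0. The value of Jund is uncertain, as set out below, and so is its place in this order. In GRCm38 coordinates Fos lies on the plus strand at chr12:85473890-85477273, and on the minus strand lie Fosb at chr7:19302696-19310051, Jun at chr4:95049034-95052222, Junb at chr8:84976910-84978718, Ier2 at chr8:84661331-84662854, Atf3 at chr1:191170296-191218039 and Dusp1 at chr17:26505590-26562128. Jund, at chr8:70698949-70700616, is on the plus strand.

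The comparison asks whether the cells labelled Lym differ from those labelled Lin- in the AP-1 and immediate early genes. The names of the groups are those of the labels, and the progenitor markers above were not lower in Lym. None of the 8 tested members passed an adjusted p of 0.05 in limma, and neither did any of the 14273 genes (0.0%), of which 1459 (10.2%) had an unadjusted limma p under 0.05. Of the members 2 did, Egr1 in the direction of Lym (5.96% of genes) and Atf3 in that of Lin- (4.27%). The 8 members had a median log2 fold change (Lym minus Lin-, on the log2(normalized count + 2) scale) of 0.21, with 5 above 0 and 3 below, against -0.010 over all genes tested. The groups did not overlap in 3 members, Egr1 and Junb with Lym higher (8.49% of all genes tested) and Atf3 with Lin- higher (7.08%), where 15.6% of genes had groups apart in either direction. Atf3 entered the test through its Lin- libraries, the group in which it was higher. Its place in these counts is thus no support for a difference. Each mouse gave 1 library, so p-values measure the spread between mice.

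**Figure D1:**
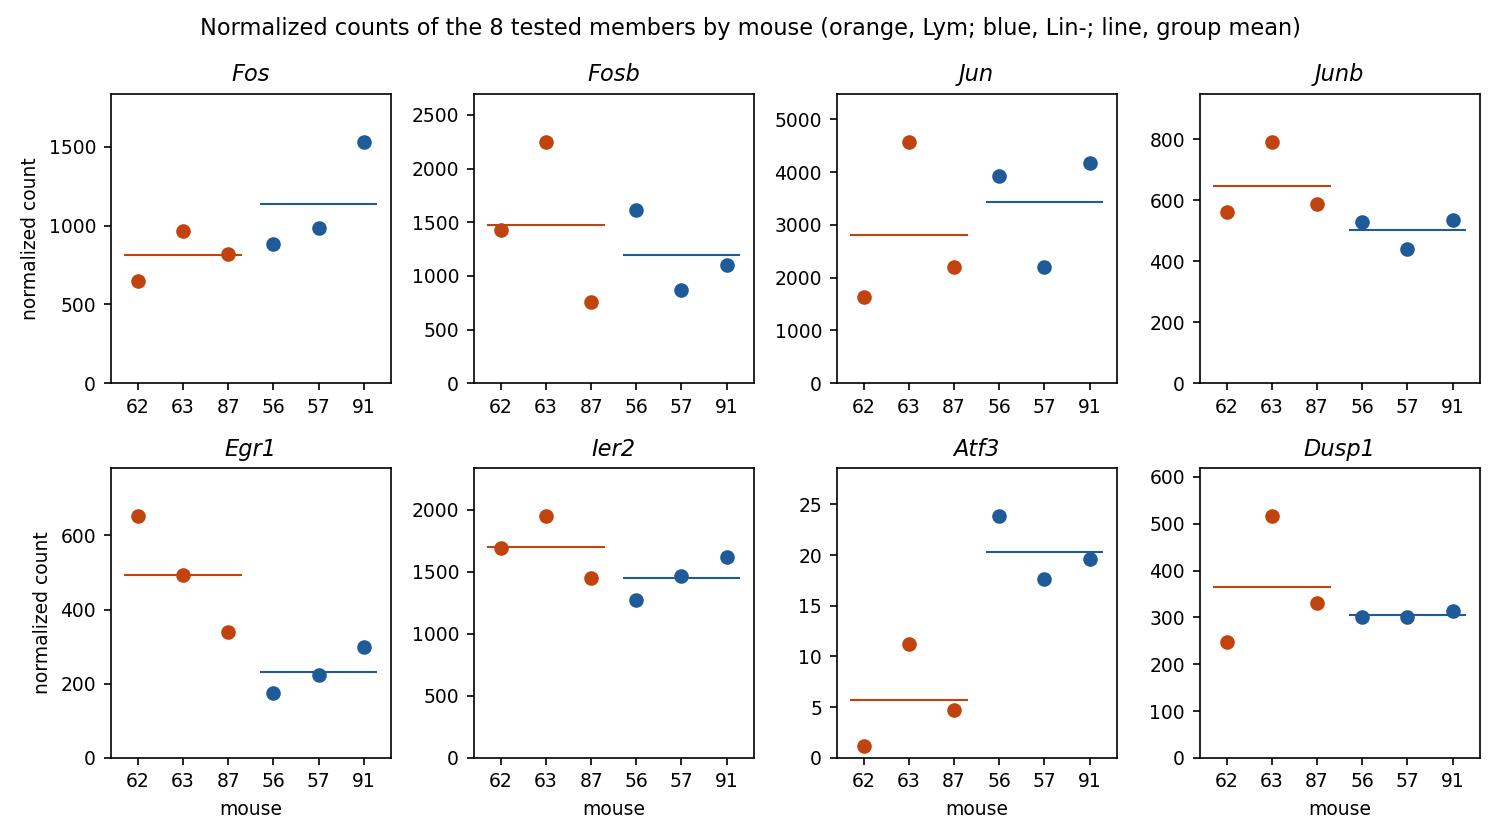
Normalized counts (y axis, from 0) of the 8 tested members in each mouse (x axis), with Lym in orange, Lin- in blue and a line at each group mean. Lym mouse 63 is the highest Lym library in 7 panels, and Egr1, Junb and Atf3 are the panels in which the groups do not overlap.

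Egr1 was the member with the clearest difference. It encodes a zinc finger factor induced through SRF and ERK that is also known to restrain the cycling of blood stem cells. Its normalized counts were 652, 493 and 338 in Lym and 174, 224 and 299 in Lin-. All 3 Lym mice lay above all 3 Lin- mice, but the lowest Lym mouse and the highest Lin- mouse were close. Their 95% exact Poisson intervals, 304 to 375 for Lym mouse 87 and 266 to 336 for Lin- mouse 91, overlapped (such intervals cover counting error only). The means were 494 ± 157 and 232 ± 63.1 (SD, n = 3 each), a 2.13-fold ratio, or 1.07 ± 0.29 (SE) in log2 fold change, and limma gave an adjusted p of 0.420.

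The call on Egr1 turned on the method and on mouse 87. DESeq2 gave a log2 fold change of 1.09 ± 0.30 with an adjusted p of 0.0244, among 226 calls or 1.39% of the genes it tested (1.14% with Lym higher). Limma with library weights gave an adjusted p of 0.0480 (4.62% of genes called, 2.98% with Lym higher), and limma without Lym mouse 87 gave 1.32 ± 0.26 and 0.0186 (9.57% called, 5.48% with Lym higher). The other alternatives, among them edgeR (0.397) and leaving out any other mouse, gave limma or edgeR adjusted p-values from 0.396 to 0.857. Without Lym mouse 87 Fosb was at 0.63 ± 0.26 on that scale (limma adjusted p = 0.169), and neither it nor any member other than Egr1 passed. In the authors' deposited table Egr1 had a log2 fold change of 0.86 ± 0.23 toward Lym and a DESeq2 adjusted p of 0.0619. It was thus not among the 101 of 31604 genes (0.32%) under 0.05 there. The unadjusted DESeq2 p was 0.000223 in both runs, while the adjustment here was over 16268 genes.

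Egr2, the close relative of Egr1 that works in lymphocytes and in macrophages, had 0 reads in all 6 libraries. The floor of 3 reads used here for a count of 0 allows a normalized count of up to 2.64 to 3.36, depending on the library. Of the other 2 Egr genes, Egr3 reached 6.16 at most and Egr4 had no read, so Egr1 was the one measurable member of its family.

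The Fos proteins bind DNA only in a dimer with a Jun or related partner. Fos was at 652, 965 and 819 normalized counts in Lym, compared with 886, 987 and 1533 in Lin-. Lin- mouse 91 stood above the other 5 libraries, which overlapped between groups. The log2 fold change was -0.46 ± 0.23 (limma adjusted p = 0.523), and it stayed between -0.62 and -0.22 when any 1 mouse was left out. Fosb, which also gives a shortened protein by splicing, was at 1423, 2249 and 758 in Lym and 1612, 870.4 and 1097 in Lin-. The highest and the lowest of its 6 values both came from Lym mice, 63 and 87. Its log2 fold change of 0.22 ± 0.38 (limma adjusted p = 0.853) turned to -0.15 without Lym mouse 63.

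Jun, the most studied partner of Fos and a target of the kinase JNK, had the widest spread of the members relative to genes of like level. It was at 1631, 4576 and 2209 normalized counts in Lym, compared with 3920.5, 2198 and 4180.3 in Lin-. Lym mouse 63 thus stood with Lin- mice 56 and 91, and the other 2 Lym mice with Lin- mouse 57, so that the high and low libraries cut across the groups. The log2 fold change was -0.38 ± 0.38 (limma adjusted p = 0.738), and it ranged from -0.80 without Lym mouse 63 to -0.055 without Lym mouse 62. The antisense gene Junos shares 232 of the 3189 exon bases of Jun. It had 4.49 to 21.1 normalized counts, far under Jun. The sources used here do not say whether counting used the strand.

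Junb, a Jun protein known to hold back myeloid proliferation, was at 562, 791 and 586 in Lym and 528, 439 and 535 in Lin-. The groups were apart by a small gap, between Lym mouse 62 and Lin- mouse 91, whose Poisson intervals (514 to 613 and 490 to 583) overlapped. The log2 fold change was 0.36 ± 0.19 (limma adjusted p = 0.528). Jund had 10, 2 and 0 reads in Lym and 2, 1 and 2 in Lin-, so 1 library alone was above a floor of 3 reads. The annotated antisense gene Gm11175 covers 52.6% of its exon bases and had at most 1.91 normalized counts. How reads in such shared bases were counted is not given in the sources used here. The overlap covers only part of the exon bases, and the cause of the low value was not tested, so the value of Jund is uncertain.

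Atf3, a zipper protein known from stress responses and macrophages, was the least abundant tested member. It was at 1.12, 11.2 and 4.76 normalized counts (1, 10 and 5 reads) in Lym, compared with 23.8, 17.6 and 19.6 (27, 20 and 19 reads) in Lin-. All 3 Lin- mice were above all 3 Lym mice, and the log2 fold change was -1.76 ± 0.66 (limma adjusted p = 0.452). At so few reads the size of this value depends on the setting: it was -0.996 with a pseudocount of 10, -2.16 with 0.5 and -1.22 with library weights, and no setting gave a call. Its 3 Lin- libraries alone met the filter, and of the Lym libraries only that of mouse 63 reached 10 normalized counts. The monocyte marker Cd14 moved with it and was at 2.24, 34.7 and 26.7 in the Lym libraries and 74.1, 53.7 and 66.0 in the Lin- libraries. The part of such cells in the Atf3 values was not tested.

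Ier2 and Dusp1 differed little between the group means. Ier2 was at 1691, 1945 and 1446 in Lym and 1269, 1466 and 1620.4 in Lin-, a log2 difference of 0.22 ± 0.15 (limma adjusted p = 0.626). Its highest library was 1.35 times its lowest in Lym and 1.28 times in Lin-, which makes it the steadiest member in Lym. Dusp1, a nuclear phosphatase for p38, JNK and ERK, was at 247, 516 and 331 in Lym and 299.9, 300.1 and 314 in Lin-. The 3 Lin- mice were almost equal, while Lym mice 62 and 63 lay below and above all of them, with Poisson intervals (215 to 282 and 470 to 565) that did not meet. The log2 fold change was 0.19 ± 0.27 (limma adjusted p = 0.816), and it turned to -0.091 without Lym mouse 63.

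The members varied more between the Lym mice than between the Lin- mice, as did most genes. The SD of log2(normalized count + 2) was wider in Lym in 7 of 8 members, where 67.9% of all genes tested were wider in Lym. Fos was the exception, with 0.28 in Lym and 0.42 in Lin-. Among the 7 was Atf3, which entered the test through its Lin- libraries and had few reads in Lym. The median SD over the members was 0.50 in Lym and 0.30 in Lin-, above the medians over all genes tested, 0.32 and 0.22. Without Lym mouse 63 the count was 4 of 8, with the remaining Lym mice set against 3 Lin- mice. No share of all genes is given for that setting, so this count cannot be set beside the 67.9%. With 3 mice in each group an exact permutation test of a single gene cannot go below 0.10, so no test of the spread was made.

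**Figure D2:**
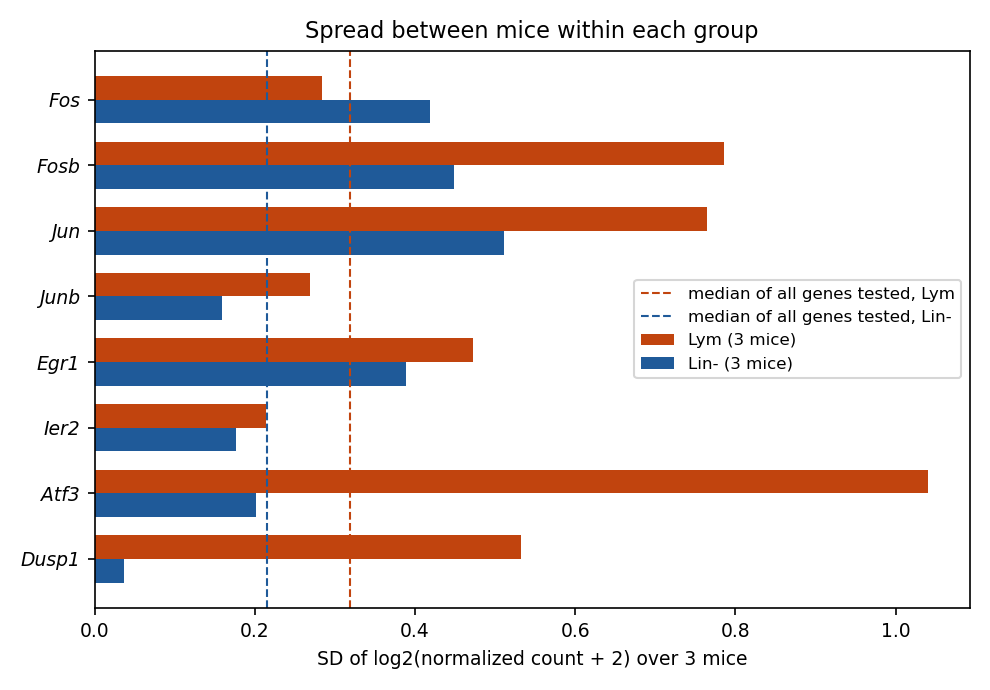
SD of log2(normalized count + 2) over the 3 mice of each group (x axis, from 0) for the 8 tested members, with dashed lines at the medians over all 14273 genes tested. The Lym bar is the longer in every member other than Fos, and Dusp1 has the shortest Lin- bar, at 0.036.

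In Lym the widest spreads were those of Atf3 (1.04), Fosb (0.79) and Jun (0.76), followed by Dusp1 (0.53) and Egr1 (0.47). In Lin- they were those of Jun (0.51), Fosb (0.45), Fos (0.42) and Egr1 (0.39). For Atf3 this spread comes with 1 to 10 reads per Lym library, and limma's trend gave an SD of 0.86 at that level, above its residual SD of 0.75. For Jun and Fosb, which have 796 to 4444 reads per library, the residual SD was 3.89 and 3.37 times the SD that the trend gave. A ratio above 2 was found in 8.58% of all genes tested, and these 2 members lay above 98.7% and 98.1% of them. The ratio was 1.76 for Fos, 1.55 for Egr1, 1.35 for Dusp1, 1.08 for Ier2 and 0.945 for Junb.

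The spread followed particular mice. Lym mouse 63 was the highest Lym library in 7 of 8 members, all but Egr1, where 25.7% of all genes tested had their highest Lym value in that mouse. It was the highest of all 6 libraries in 5 members, Fosb, Jun, Junb, Ier2 and Dusp1, against 15.2% of genes. Lym mouse 62 was the lowest Lym library in 5 of 8 (33.0% of genes) and Lym mouse 87 in the other 3 (38.1%). The library of mouse 62 is the one made from 1 ng of RNA, and the part of input in its low values was not tested. Sums of the 7 monocyte, the neutrophil and the stromal markers are given above. Among the Lym libraries these sums were likewise highest in mouse 63 and lowest in mouse 62. The monocyte markers were not of 1 pattern: Lyz2 was highest in Lym mouse 62, and Cx3cr1 and Ly6c2 in Lym mouse 87. In Lin- the neutrophil sums were 65.3, 179.5 and 32.0 and the stromal sums 8.82, 9.68 and 2.06. Both were thus lowest in mouse 91, unlike most members. The neutrophil sum was mostly Mmp8 (39.3, 290 and 47.6 in Lym), and 0 of the 6 stromal genes passed the filter. Without Ly6c2 the monocyte sum was lowest in mouse 87 (3528, against 3913 in mouse 62). The part of such cells in the members' values was not tested. Among the Lin- mice, mouse 91 was the highest in 6 of 8 (29.8% of genes) and the lowest in none (31.2%). The Lym value of mouse 87 lay within the Lin- range in 2 members, Jun and Ier2, against 48.0% of all genes tested.

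Genes known to answer handling or heat were set beside this pattern. The heat-inducible chaperone genes Hspa1a and Hspa1b reached at most 3.36 and 22.1 normalized counts, and Hspb1 had no read. Other genes of the same list were at higher levels. Dnajb1 was at 1056 ± 164 in Lym and 937 ± 48.1 in Lin-, and Hsph1 at 1167 ± 253 and 1222 ± 325 (SD, n = 3 each). Bag3 was at 590 ± 150 and 662 ± 49.2, and Hsp90aa1 at 15330 ± 3267 and 16979 ± 1974. Of 14 heat shock and ubiquitin genes 11 were tested, 10 of them with a log2 fold change below 0 (median -0.16), against 7320 of all 14273 genes tested. Hspd1, the mitochondrial chaperonin, was at 3662 ± 749 in Lym and 4748 ± 706 in Lin- (SD, n = 3 each, limma adjusted p = 0.50), and its partner Hspe1 at 899.7 ± 239 and 1155 ± 78.2 (limma adjusted p = 0.519). The ubiquitin gene Ubb was at 1767 ± 209 and 2107 ± 333. Lym mouse 63 was the highest Lym library in 1 of these 11 genes (25.7% of all genes tested) and the lowest in 5 (4117 of all 14273 genes tested). The part of handling in the spread was not tested.

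The profile of Jun across the 6 libraries recurred in other genes. Likeness was measured as the root mean square difference of log2 values centred per gene, over 6 libraries and the 9709 other genes with a mean of at least 100 normalized counts. Jun and Egr1 were added as references after their values were seen. The 5 genes most like Jun were Serpinf1 (0.195), Gas7 (0.196), Zfp59 (0.209), Adgra2 (0.212) and Fkbp5 (0.216), where the profile of Jun itself departs by 0.56 from a flat line. Fkbp5, a cochaperone of the glucocorticoid receptor and a known glucocorticoid target, was at 2891, 6089.5 and 2981 in Lym and 4356, 2886 and 4839 in Lin-. The quiescence factor Klf2 ranked 36 of 9709 (0.34), at 220, 1117 and 526 in Lym and 1084, 437 and 1062 in Lin-, and Klf6 ranked 21 (0.31). These genes share libraries, depth and cells with Jun, and likeness over 6 libraries carries no test.

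**Figure D3:**
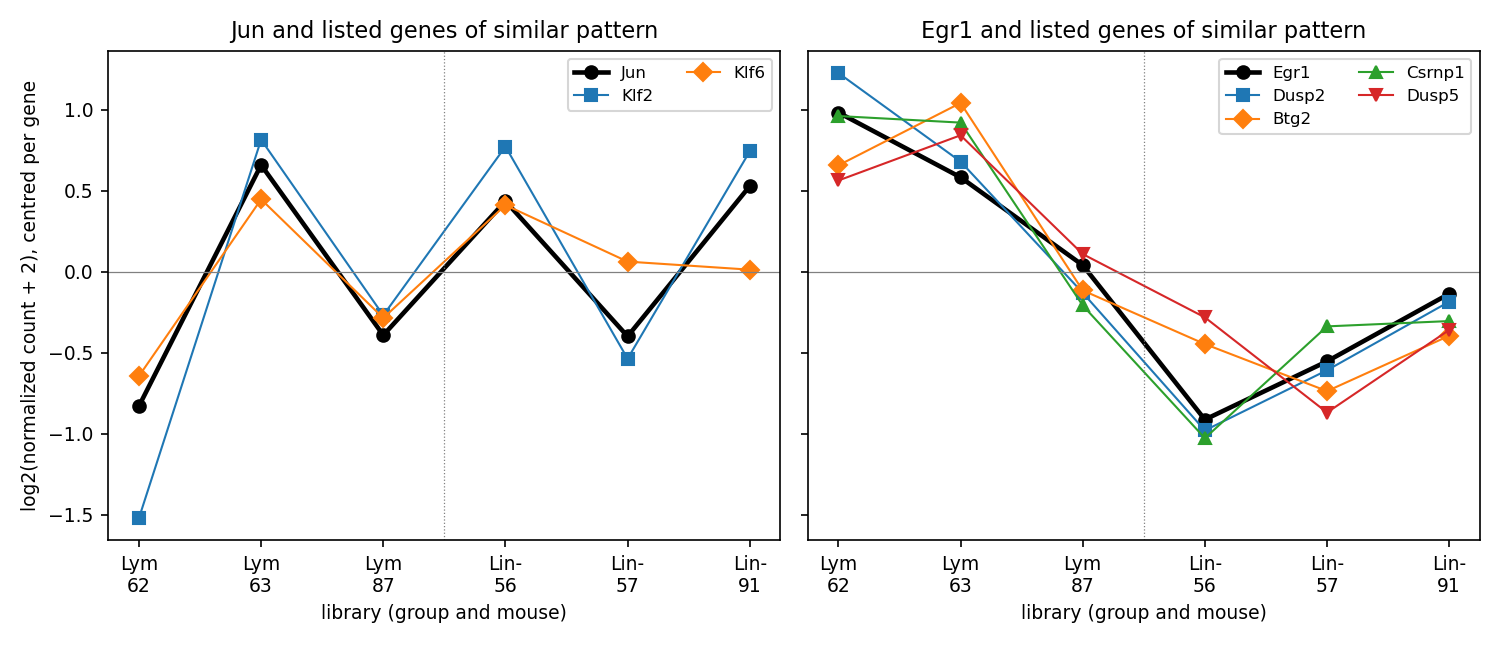
Values of log2(normalized count + 2) centred on each gene's mean (y axis) in the 6 libraries (x axis), for Jun with Klf2 and Klf6 on the left and for Egr1 with 4 other listed genes on the right. Lines join the points of 1 gene and imply no order of mice: Jun is high in Lym mouse 63 and Lin- mice 56 and 91, while Egr1 is above its mean in all 3 Lym libraries.

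Egr1 had another profile, and the gene most like it was Dusp2 (0.134). Dusp2 is a nuclear phosphatase of ERK induced by the same signals, and it was on the list of phosphatases. It was at 1081, 739.6 and 421 in Lym, compared with 233, 302 and 405 in Lin-. Vangl2 (0.138), Gfod1 (0.161), Slc27a1 (0.182) and Runx2 (0.193) came next. Among listed immediate early genes Csrnp1, a nuclear protein, ranked 8 (0.210) and the antiproliferative gene Btg2 ranked 111 (0.331), while the ERK phosphatase Dusp5 ranked 191 (0.364). The genes most like Fos were Tfeb (0.145), Grhpr (0.147), Adprm (0.149), Itgb5 (0.152) and Fggy (0.159), against a departure of 0.37 from a flat line for Fos. Those most like the mean of the 8 tested members, among 9703 genes with the members left out, were Klf13 (0.073), H2-DMb1 (0.095), Map3k6 (0.106), Irf5 (0.108) and Anapc16 (0.115). That mean departs by only 0.27 from a flat line. Its value of -0.30 in Lym mouse 62 owes much to Atf3, which stood at -1.95 there with 1 read.

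The list of other immediate early genes had 27 of 36 genes tested, and 0 passed an adjusted p of 0.05 in limma. 16 had a log2 fold change above 0 and 11 below (median 0.06), and the groups did not overlap in 3 (15.6% of all genes tested). Btg2 was at 387, 506 and 226 in Lym and 179, 146 and 186 in Lin-, a log2 difference of 1.05 ± 0.31 (limma adjusted p = 0.421; DESeq2 adjusted p = 0.0275). Csrnp1 was at 174, 169 and 76.2 against 42.3, 69.5 and 71.2 (limma adjusted p = 0.452). In both, Lym mouse 87 was the lowest Lym library and lay above the highest Lin- mouse. Zfp36l2, which destabilizes AU-rich mRNAs such as those of this gene set, was at 22952, 18387 and 12787 against 11486, 10549 and 12920, so the groups overlapped (limma adjusted p = 0.446, and 0.0101 without Lym mouse 87). Tiparp, among the 11 with a log2 fold change below 0, was at 384 ± 40.4 in Lym and 562 ± 58.1 in Lin- (SD, n = 3 each, limma adjusted p = 0.426), with groups apart. Lym mouse 63 was the highest Lym library in 16 of the 27 (25.7% of all genes tested).

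Of 9 other MAP kinase phosphatases and EGR co-repressors, 8 were tested and 0 passed in limma, with 3 above 0 and 5 below (median log2 fold change -0.055). Dusp2 differed by a log2 value of 1.18 ± 0.35 (limma adjusted p = 0.421; DESeq2 adjusted p = 0.0104). Dusp5 was at 226, 275 and 165 in Lym against 125, 82.7 and 119 in Lin-, with 1.01 ± 0.29 (limma adjusted p = 0.421; DESeq2 adjusted p = 0.0849). Dusp16, a phosphatase of JNK and p38, was at 122, 161 and 30.5 against 20.3, 19.4 and 36.1. Its Lym mouse 87 lay inside the Lin- range (limma adjusted p = 0.451; DESeq2 adjusted p = 0.0341). Nab2, a co-repressor that binds EGR proteins and is itself an EGR target, stood the other way, at 16.8, 45.9 and 6.67 in Lym against 64.4, 29.0 and 50.5 in Lin- (limma adjusted p = 0.528). Without Lym mouse 87, limma called Egr1, Dusp2, Dusp5, Dusp16, Btg2, Csrnp1, Zfp36l2, Nfkbiz, Zfp36, Mafk, Mkl2 and Elk4 as higher in Lym, and Hspe1 as lower. These were 1 of 8 members, 5 of 27 other immediate early genes, 3 of 8 phosphatases and co-repressors, 1 of 9 partners, 2 of 22 kinases and factors and 1 of 11 heat shock genes. Over all genes tested 9.57% were called, 782 higher in Lym and 584 lower. Mouse 87 was the Lym library nearest to the Lin- libraries, and leaving it out raised the calls from 0 to 1366. A rise follows from the place of that library, and leaving out Lym mouse 62 or 63 gave 0 calls. The calls without mouse 87 therefore add no support for a difference in these genes.

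**Figure D4:**
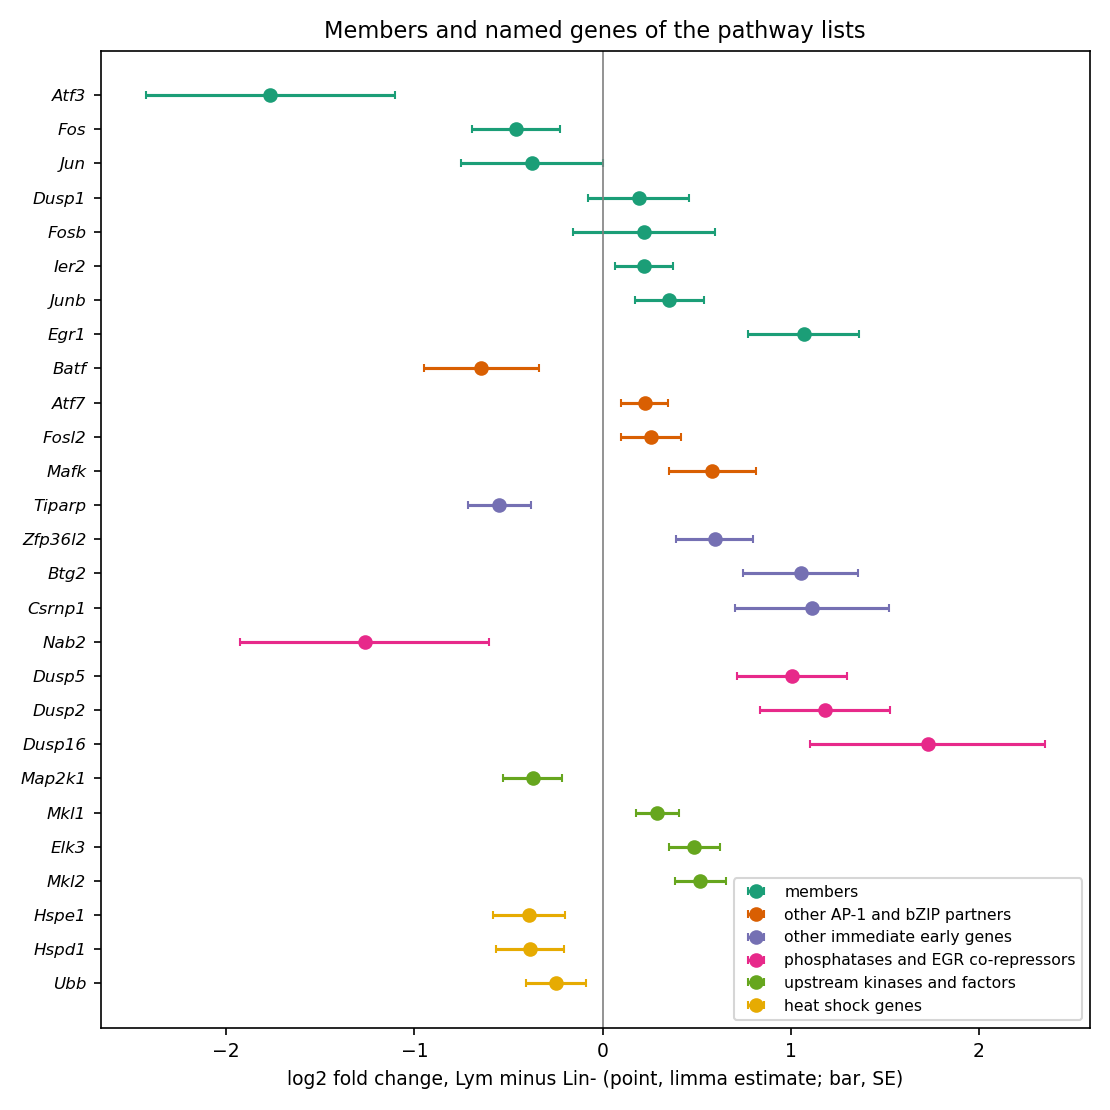
Log2 fold change of Lym minus Lin- (x axis; point, limma estimate; bar, SE) for the 8 tested members and up to 4 genes of lowest unadjusted limma p in each other list, coloured by list. Egr1, Dusp2, Dusp5, Dusp16, Btg2 and Csrnp1 lie at about 1 or more, Atf3 and Nab2 below -1, and none passed an adjusted p of 0.05 in limma.

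The other AP-1 and zipper partners, 9 of 11 of them tested, had no gene past the threshold in limma. Mafk, a small Maf protein, was at 1919.99, 1516 and 981 in Lym and 925, 1054 and 867 in Lin- (log2 fold change 0.58 ± 0.23, limma adjusted p = 0.464, and 0.0131 without Lym mouse 87). Batf, an AP-1 factor of lymphocytes, was at 109.9, 196 and 200 against 302, 282 and 196 (-0.64 ± 0.30, limma adjusted p = 0.507). Fosl2, the remaining measurable Fos protein, was at 1421 ± 272 and 1174 ± 51.2, Atf7 at 2714 ± 283 and 2321 ± 191 (SD, n = 3 each), and Fosl1 reached 9.28 at most.

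Of the listed kinases and factors upstream of the members, 22 of 22 were tested and 0 called in limma (median log2 fold change 0.083). The groups did not overlap in 5 (15.6% of all genes tested), with Lym higher in 4 (8.49%). Among them were both coactivators of SRF, Mkl2 at 1849 ± 254 in Lym and 1281 ± 22.7 in Lin- and Mkl1 at 2628 ± 224 and 2141 ± 70.9 (SD, n = 3 each), with limma adjusted p-values of 0.420 and 0.462 (0.0191 and 0.0691 without Lym mouse 87). The SRF partner Elk3 was at 1105 ± 61.4 and 788 ± 69.3 (limma adjusted p = 0.420). Map2k1, the kinase above ERK, was lower, at 886 ± 124 and 1144 ± 126 (limma adjusted p = 0.473). Their median SD was 0.20 in Lym and 0.11 in Lin-, below the members' 0.50 and 0.30.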

How the data were processed

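The 6 libraries, 3 Lym and 3 Lin-, were grouped by the labels, which name no batch and no pairing. The submitters' processing notes name, with no order or role, STAR 2.6.1d, Trim Galore 0.6.4, DESeq2, bcl2fastq and featureCounts 1.6.4, and the build GRCm38.p6. Per the labels' protocols, a stranded total RNA kit with 12 PCR cycles gave 38-base reads. Each deposited value is a normalized signal: the authors scaled the gene counts of a library by its size factor. All values were whole multiples of 1 step per library (100% of values up to 10000, tolerance 0.01), so whole reads were recovered. Per the file headers, it also gives log2 fold changes, Wald scores and p-values of the authors. Signs were turned to Lym minus Lin-. Gene length in bases is also the authors', per the file headers.

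Limma 3.58.1 (R 4.3.3, trend option) was fitted on log2(normalized count + 2) over all genes past the filter, with Benjamini-Hochberg adjustment over all of them and a threshold of 0.05. Alternatives on recovered reads were edgeR 4.0.16, limma-voom and DESeq2 1.42.0, besides TMM scaling, other pseudocounts and filters, library weights and leaving out each mouse. The fits were tested on simulated counts. Description and plots used pandas 2.3.3 and matplotlib 3.10.9 under Python 3.11.15.

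The members and gene lists were chosen with earlier results of these data known. All 10 members were named, with the 4 genes of lowest unadjusted p in each other list and the 5 genes nearest in pattern to Fos and to the members' mean. 1 gene under this rule is not reported here. Klf2, Klf6, Nfkbiz, Zfp36, Elk4, Egr3, Egr4, Fosl1, Hspa1a, Hspa1b, Hspb1, Junos and Gm11175, and the references Jun and Egr1, were added after their values were seen. Of the identifiers, 8 of the 10 members matched GENCODE M21 by version; Junb and Ier2 were not checked there for overlapping genes. Promoters came from the RefSeq table for GRCm38.p6.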

Additional observations from a re-analysis of the deposited data

How the results depend on the processing

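With DESeq2 the number of genes called was 226, with library weights 660, without a filter 5 and with a pseudocount of 10 it was 1, against 0 in limma, edgeR, limma-voom, TMM scaling, a pseudocount of 0.5 and a filter at 50. Leaving out 1 mouse at a time gave 0 to 1366 calls, 1366 when Lym mouse 87 and 1 when Lin- mouse 91 was left out. The number of members called was 1 (Egr1) with DESeq2 and with library weights, and 0 to 1 when 1 mouse was left out, with Egr1 called without Lym mouse 87. The number of members with a wider SD in Lym was 4 to 8 when 1 mouse was left out, the lowest without Lym mouse 63. These counts have no share over all genes beside them. Of 119 member fold changes under the alternatives, 113 kept their sign and their side of the threshold, 3 became calls (Egr1) and 3 changed sign: Jun was 0.0025 with library weights, and without Lym mouse 63 Fosb was -0.15 and Dusp1 -0.091. Leaving out each mouse, the range reached 0.63 for Fosb and 0.44 for Dusp1. The cause was not tested. Atf3 could not be fitted with the filter at 50. The median fold change over all genes moved by under 0.1 with TMM scaling (from -0.010 to -0.026), while it was 0.19 over the larger set of genes that DESeq2 tested. Atf3, Jund and Egr2 had at most 27, 10 and 0 reads in a library.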
